A study of Mus musculus with 6 samples.

Results

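The 10 genes described here encode the nuclear receptors and coactivators that set the expression of mitochondrial and lipid metabolism genes: the peroxisome proliferator-activated receptors *Ppara*, *Ppard* and *Pparg*, their dimer partner *Rxra*, the oestrogen-related receptors *Esrra*, *Esrrb* and *Esrrg*, the PGC-1 coactivators *Ppargc1a* and *Ppargc1b*, and nuclear respiratory factor *Nrf1*. They were chosen by gene symbol, by no threshold on their values but with earlier results of these data known, and all 10 were found among the 20066 genes listed. RNA was sequenced from primary cardiomyocytes (CMs) of C57BL/6 mice at P0-1, kept for 96 h in culture with either dimethylsulfoxide (DMSO), the solvent, or α-ketoglutarate in a cell-permeable form (αKG, 100 µM per the labels), with 3 libraries per group. Both groups came from the same strain and were grown in glucose medium with serum on fibronectin, and according to the study's methods each isolation pooled neonatal hearts. The comparison asks whether αKG, a Krebs cycle intermediate, alters the expression state of these cells, here for the regulators of energy metabolism.

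PPARs bind DNA as dimers with retinoid X receptors such as RXRα and are activated by fatty acids and their derivatives. Oestrogen-related receptors have no known natural hormone ligand and depend on coactivators, chiefly PGC-1α and PGC-1β, which do not bind DNA themselves. NRF1 acts on nuclear genes for respiratory chain subunits and for the upkeep of mitochondrial DNA. In the heart these factors are known for the shift after birth from glucose to fatty acids as fuel.

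The deposited values were read counts normalized per library and rounded to whole numbers, called normalized counts here. The estimated depth was 3726069 to 4427587 reads in genes per library. αKG replicate 3 stood apart from its group: across genes its log2 values correlated at 0.962 and 0.963 with the other αKG libraries and at 0.977 to 0.980 with the DMSO libraries, so that the main results are given with and without it. DMSO replicates 2 and 3 differed by little more than sampling noise (chi-square 1.02 per gene, 16 genes differing), and both were kept as separate samples. Markers of CMs were all listed, 10 of 10, and summed to 75142 to 77866 normalized counts in DMSO and to 107984, 111272 and 79754 in αKG replicates 1 to 3. Most of this was *Ttn*, and the 9 other markers summed to 23573 to 24088 in DMSO and to 27678, 27136 and 24185 in αKG, with a median log2 fold change of 0.10 over the 10, from -0.41 to 0.45. Fibroblast markers (10 of 10 listed) summed to 3649 to 3785 in DMSO and to 8149, 7884 and 3672 in αKG, and epicardial markers (10 of 10) to 483 to 519 and to 1279, 1238 and 456. Endothelial markers (10 of 10) summed to 2006 to 2123 in DMSO and 1402 to 1499 in αKG, smooth muscle and pericyte markers (10 of 10) to 4306 to 4415 and 4613 to 5027. Of the macrophage markers 4 of 10 were listed, with sums of 22 to 35 and 24 to 41, and of the adipocyte markers 2 of 8, the defining *Adipoq* and *Plin1* not being among them. In bulk RNA, fewer cells of a type and less RNA per cell cannot be told apart, and the part of these other cells in the results below was not tested.

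Start sites of 9 of the 10 genes were found among the RefSeq promoters (GRCm38.p6), with 17 windows of 250 bases upstream. They were searched on both strands for 4 motifs of factors in this group, which are known to act on each other's genes, and for 1 motif of CREB, a known activator of *Ppargc1a*. The full NRF1 site, GCGCA followed directly by TGCGC, occurred in 1 of the 17 windows, that of *Ppara*, and in 0.782% of all 32851 windows. The ERR half-site AAGGTCA occurred in 1 of the 17, at the second start site of *Rxra*, and in 4.08% of all windows. The CRE half-site of CREB, TGACG, occurred in windows of *Ppara*, *Ppargc1a* and *Esrrb* and in 17.8% of all windows. The extended ERR site TCAAGGTCA and the PPAR-RXR direct repeat, AGGTCA repeated after 1 base of any kind, which can each contain the ERR half-site, occurred in 0 of the 17 windows and in 0.387% and 0.0335% of all windows. The sequences below show a match at the gene with the largest difference, at the gene with the highest level and at the shared dimer partner, with the motif in capitals (for *Ppargc1a* the half-site is read on the opposite strand). They lie at chr15:85735735-85735764 (plus strand, motif 31 to 22 bases before the start), at chr5:51567727-51567975 (minus strand, 49 to 45 bases before the start) and at chr2:27709042-27709291 (plus strand, 49 to 43 bases before the start).
Ppara: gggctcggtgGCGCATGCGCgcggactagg
Ppargc1a: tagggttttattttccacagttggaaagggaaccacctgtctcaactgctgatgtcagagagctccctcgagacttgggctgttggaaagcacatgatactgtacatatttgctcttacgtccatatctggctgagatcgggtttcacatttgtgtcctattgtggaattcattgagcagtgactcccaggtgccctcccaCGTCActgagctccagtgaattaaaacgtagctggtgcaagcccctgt
Rxra: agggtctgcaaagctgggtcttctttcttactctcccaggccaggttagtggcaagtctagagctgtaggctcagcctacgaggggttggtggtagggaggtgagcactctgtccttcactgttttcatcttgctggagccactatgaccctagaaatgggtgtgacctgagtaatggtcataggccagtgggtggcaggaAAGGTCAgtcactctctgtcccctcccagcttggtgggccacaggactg
Each match describes the letters of the genome and says nothing of binding in these cells.

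Per kilobase of exon, the coactivators had the highest levels of the 10 genes and *Pparg* the lowest. In DMSO the mean was 248 ± 5.61 normalized counts per kilobase for *Ppargc1a* (SD, n = 3, as for all values of this kind), 190 ± 2.7 for *Ppargc1b* and 96.0 ± 3.33 for *Esrrg*. *Esrra* followed at 72.9 ± 1.68 and *Rxra* at 69.7 ± 2.8, and the ranges of this neighbouring pair overlapped (71.6 to 74.8 against 67.6 to 72.9). Below them stood *Ppara* at 50.7 ± 3.39, *Ppard* at 33.5 ± 2.07, *Nrf1* at 25.8 ± 1.63, *Esrrb* at 9.04 ± 0.477 and *Pparg* at 3.27 ± 1.37, with no other overlap between neighbours. Among the PPARs the order was thus α, δ, γ, and among the oestrogen-related receptors γ, α, β.

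In αKG the order of the means was the same, but more neighbours overlapped. *Ppargc1a* (199 ± 28.2 normalized counts per kilobase) overlapped with *Ppargc1b* (172 ± 22.6), and *Esrrg* (74.7 ± 18.6) with *Esrra* (61.3 ± 2.96), which overlapped with *Rxra* (54.9 ± 7.96). *Ppara* (31.2 ± 8.88) overlapped with *Ppard* (28.3 ± 1.37), from which it was separate in DMSO. *Nrf1* at 21.9 ± 1.46, *Esrrb* at 12.3 ± 2.2 and *Pparg* at 3.05 ± 1.22 each stood apart from the gene above.

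**Figure D1:**
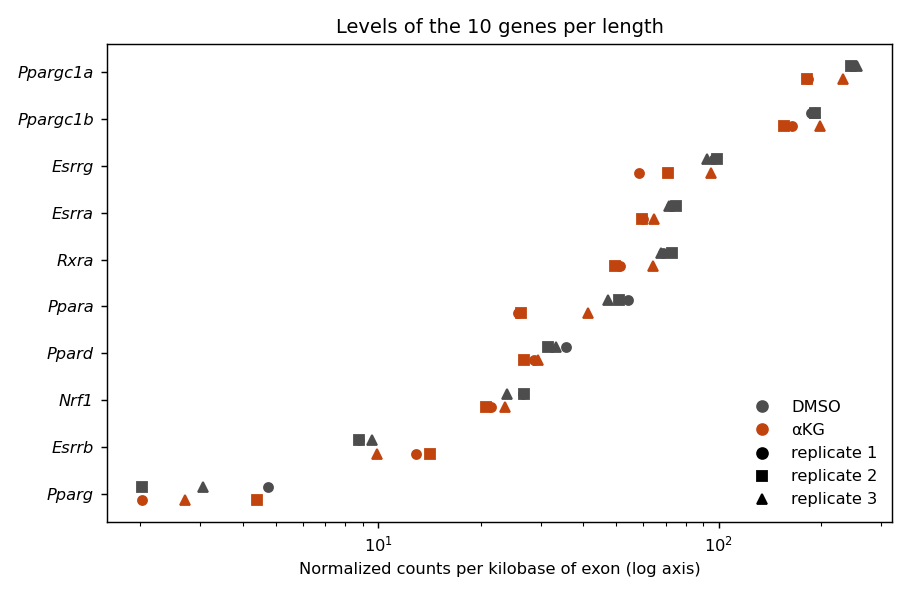
Levels of the 10 genes in each library as normalized counts per kilobase of exon on a log axis, with DMSO in grey and αKG in orange and a symbol for each replicate. The coactivator *Ppargc1a* is highest and *Pparg* lowest in both groups, and αKG replicate 3 (triangles) lies between its group and DMSO for *Ppara*, *Rxra* and *Ppargc1a*.

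Between αKG and DMSO, 9 of the 10 genes had a lower mean in αKG and *Esrrb* a higher one, yet none passed an adjusted p of 0.05 (limma on log2 values, Benjamini-Hochberg over all 20066 genes), where 3.78% of all genes did. At an unadjusted p under 0.05 there were 7 lower and 1 higher of the 10, against 28.1% of all genes (12.4% lower and 15.7% higher). The 2 groups did not overlap in 7 genes, 6 lower and 1 higher, against 28.3% of all genes (14.6% lower and 13.7% higher). The median log2 fold change of the 10 was -0.25, beside 0.04 for all genes. Most of the 10 were well expressed, 8 with a mean of at least 100. Among the 8295 genes at this level, the median was -0.08, 23.5% were lower at an unadjusted p under 0.05 and 26.9% were lower without overlap.

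Leaving out αKG replicate 3 brought 9 of the 10 genes past the adjusted threshold, 8 lower and *Esrrb* higher, with *Pparg* the exception. That fit called 37.2% of all genes, 17.9% lower and 19.3% higher, and 34.6% of the genes with a mean of at least 100 lower, so that calls were common in it. Their limma adjusted p lay between 0.000719 and 0.0351, and over all alternatives these 9 genes ranged from 0.000719 to 0.638. Without αKG replicate 1 or without αKG replicate 2, 0 of the 10 passed, and so did 0 of all 20066 genes. Other alternatives that called a gene of the 10 also called more of all genes. With the libraries scaled to equal totals, *Ppara* passed, lower, where 4.56% of all genes did (1.53% lower). After a correction for GC content and exon length, *Ppara* and *Ppargc1a* passed, both lower, where 6.17% of all genes did (3.55% lower). With that correction and the replicate number as a block, *Esrrg* passed in addition, also lower, against 8.49% of all genes (5.04% lower). The block alone called 0 of the 10 and 0.229% of all genes (0.00498% lower).

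**Figure D2:**
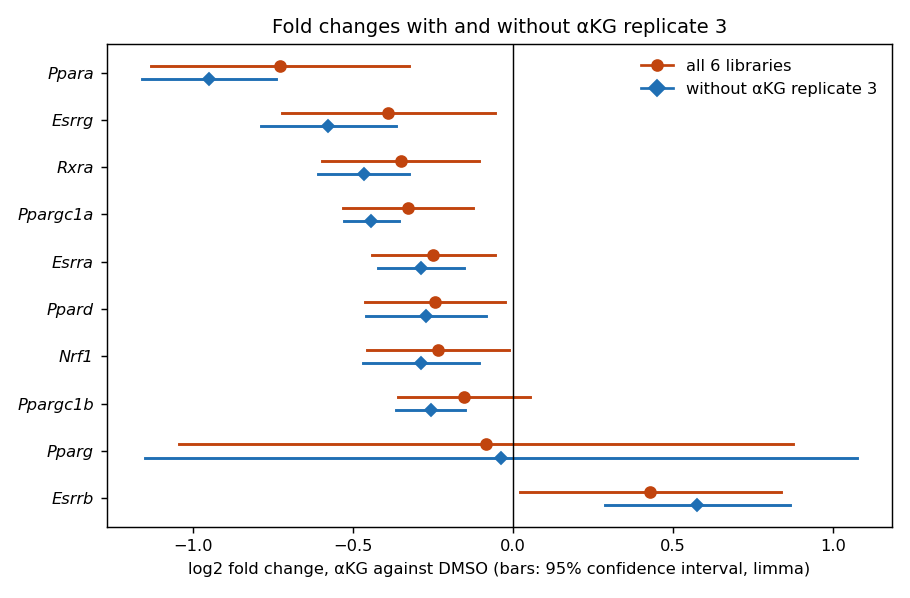
log2 fold changes of the 10 genes in αKG against DMSO with 95% confidence intervals from limma, for all 6 libraries (circles) and without αKG replicate 3 (diamonds). *Ppara* lies farthest below 0 in both fits and *Esrrb* is the one gene with its estimate above 0, while the intervals of *Pparg* are the widest.

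*Ppara*, the PPAR that drives fatty acid oxidation in heart and liver (ENSMUSG00000022383, GRCm38 chromosome 15, 85734983 to 85802819), showed the largest difference of the group. It stood at 207, 195 and 181 normalized counts in the DMSO libraries and at 99, 101 and 159 in αKG replicates 1 to 3. All αKG libraries were below all DMSO libraries, with αKG replicate 3 nearer to DMSO than to the other αKG libraries. The log2 fold change was -0.73 ± 0.18 (SE, n = 3 each, 95% interval -1.13 to -0.33, limma adjusted p = 0.0542), a change of -39.6%. Without αKG replicate 3 it was -0.95 (-48.2%, limma adjusted p = 0.00101, with 0.00101 to 0.285 over its alternatives). *Ppara* was the gene of the group that passed under the most alternatives, 4 of 18: those without αKG replicate 3, with equal library totals, and with the GC and length correction with and without the replicate block.

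*Ppard*, the PPAR found in most tissues (ENSMUSG00000002250, chromosome 17, 28232700 to 28301474), had 268, 237 and 250 normalized counts under DMSO and 215, 201 and 221 under αKG. The groups did not overlap, and αKG replicate 3 was the highest of its group by a small margin. Its log2 fold change was -0.24 ± 0.10 (limma adjusted p = 0.145). *Pparg*, the PPAR of fat cells (ENSMUSG00000000440, chromosome 6, 115360951 to 115490399), was barely detected, with 14, 6 and 9 normalized counts under DMSO and 6, 13 and 8 under αKG. These rest on an estimated 30 and 27 reads per group, and the interval of its log2 fold change, -1.04 to 0.88, allows a difference in either direction. *Rxra*, the common dimer partner of the PPARs (ENSMUSG00000015846, chromosome 2, 27676440 to 27762957), had 375, 398 and 369 normalized counts under DMSO and 279, 271 and 350 under αKG. Again αKG replicate 3 lay just below the DMSO libraries and the other αKG libraries well below them. The log2 fold change was -0.35 ± 0.11 (limma adjusted p = 0.0878).

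**Figure D3:**
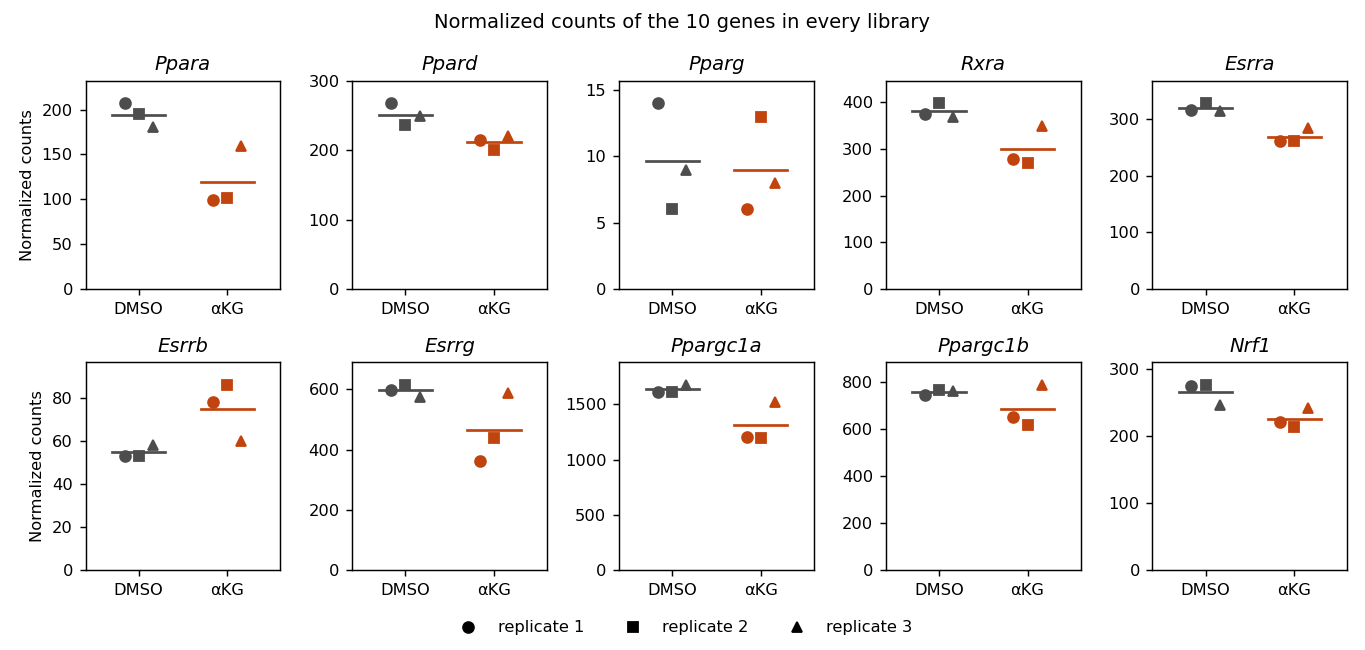
Normalized counts of each of the 10 genes in every library, with axes starting at 0, a symbol for each replicate and a bar at the mean of each group. For *Ppara*, *Rxra*, *Esrrg*, *Ppargc1a* and *Ppargc1b*, αKG replicates 1 and 2 lie below all DMSO libraries and αKG replicate 3 (triangle) lies nearer to them, within them or, for *Ppargc1b*, above them.

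Among the oestrogen-related receptors, *Esrrg*, the form enriched in heart (ENSMUSG00000026610, chromosome 1, 187608791 to 188214885), had 599, 615 and 574 normalized counts under DMSO and 362, 440 and 589 under αKG. αKG replicate 3 lay within the DMSO range, so the groups overlapped, and the spread in αKG (SD 115) was far above that in DMSO (SD 20.7). The log2 fold change was -0.39 ± 0.15 (limma adjusted p = 0.13). It was -0.58 without αKG replicate 3 and -0.23 without αKG replicate 1. *Esrra*, the most widely expressed form (ENSMUSG00000024955, chromosome 19, 6910977 to 6921840), had 317, 328 and 314 under DMSO and 262, 261 and 284 under αKG. Its groups were each narrow and did not overlap, and its log2 fold change was -0.25 ± 0.09 (limma adjusted p = 0.108). *Esrra* shares 73 exon bases, 1.7% of its own, with *Trmt112* on the opposite strand and 91 with the microRNA gene *Mir6990*, and no source states whether counting used strand.

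*Esrrb*, known for its role in embryonic stem cells (ENSMUSG00000021255, chromosome 12, 86361117 to 86521628), was the one gene with a higher mean in αKG. It had 53, 53 and 58 normalized counts under DMSO and 78, 86 and 60 under αKG. Each αKG library was above each DMSO library, with αKG replicate 3 just above, and the log2 fold change was 0.43 ± 0.18 (95% interval 0.02 to 0.84, limma adjusted p = 0.162). This gene rested on 173 estimated reads in the DMSO group and 213 in the αKG group.

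*Ppargc1a*, which encodes PGC-1α (ENSMUSG00000029167, chromosome 5, 51454250 to 51567726), had the narrowest spread in DMSO relative to its level apart from *Ppargc1b*. It had 1611, 1615 and 1677 normalized counts under DMSO and 1205, 1199 and 1524 under αKG. αKG replicates 1 and 2 were nearly equal and αKG replicate 3 was closer to DMSO, yet below each DMSO library. The log2 fold change was -0.33 ± 0.09 (-20.4%, limma adjusted p = 0.0689), and -0.44 without αKG replicate 3 (limma adjusted p = 0.000719, with 0.000719 to 0.313 over its alternatives). With the GC and length correction it was -0.52. *Ppargc1b*, which encodes PGC-1β (ENSMUSG00000033871, chromosome 18, 61298136 to 61400431), had 747, 767 and 764 under DMSO and 653, 618 and 789 under αKG. Here αKG replicate 3 was above all DMSO libraries, and the log2 fold change was -0.15 ± 0.09 (limma adjusted p = 0.301). It was -0.26 without αKG replicate 3 and -0.08 without αKG replicate 2. *Nrf1* (ENSMUSG00000058440, chromosome 6, 30047988 to 30153458) had 274, 276 and 246 under DMSO and 221, 213 and 242 under αKG. The groups did not overlap, though DMSO replicate 3 and αKG replicate 3 were 4 normalized counts apart, and the log2 fold change was -0.24 ± 0.10 (limma adjusted p = 0.16), or -0.36 with the GC and length correction.

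Ratios of 2 genes within a library do not depend on how libraries were scaled, and were compared by an exact two-sided permutation test over the 6 libraries, in which 0.1 is the smallest p that can be reached. The log2 ratio of *Ppara* to *Ppard* was -0.37, -0.28 and -0.46 in DMSO and -1.11, -0.99 and -0.47 in αKG, a difference of -0.48 ± 0.20 (SE, exact permutation p = 0.1). αKG replicate 3 was thus at the lower edge of the DMSO libraries. The log2 ratio of *Ppargc1a* to *Ppargc1b* was 1.11, 1.07 and 1.13 in DMSO and 0.88, 0.95 and 0.95 in αKG, a difference of -0.18 ± 0.03 (exact permutation p = 0.1). This was the one ratio of the 4 in which αKG replicate 3 fell between the other αKG libraries. That of *Rxra* to *Ppara* was 0.38 ± 0.12 higher in αKG with no overlap (exact permutation p = 0.1), and that of *Esrrg* to *Esrra* overlapped between the groups (-0.14 ± 0.17, exact permutation p = 0.6). Without αKG replicate 3 the differences were -0.68 for *Ppara* to *Ppard*, -0.19 for *Ppargc1a* to *Ppargc1b*, 0.48 for *Rxra* to *Ppara* and -0.29 for *Esrrg* to *Esrra*. As 4 ratios were compared and none can go below 0.1, no adjustment could bring one past 0.05.

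Across all genes, αKG replicate 3 correlated at 0.977 to 0.980 with the DMSO libraries and at 0.962 and 0.963 with the other αKG libraries. The share of all genes in which it lay nearer to DMSO was not counted. In most of the 10 genes αKG replicate 3 likewise differed less from DMSO than the other αKG libraries did. Its log2 difference from the DMSO mean was under 50% of the mean difference of αKG replicates 1 and 2 in 7 genes: 30.1% for *Ppara*, 25.7% for *Rxra*, 23.1% for *Esrrb*, 22.7% for *Ppargc1a*, 45.4% for *Nrf1*, 2.8% for *Esrrg*, and in the opposite direction for *Ppargc1b*. It was 67.8% for *Ppard* and 58.9% for *Esrra*. For *Pparg*, where αKG replicates 1 and 2 together differed from DMSO by only -0.04, it was 461.3%. The summed fibroblast markers given above were high in αKG replicates 1 and 2 and at the DMSO level in αKG replicate 3. The epicardial sum was high in αKG replicates 1 and 2 and below every DMSO library in αKG replicate 3. The median log2 difference of the epicardial markers from their DMSO means was 2.251, 2.033 and -0.794 in αKG replicates 1 to 3. The endothelial sum was low in all 3 αKG libraries. The median log2 difference of the endothelial markers was -1.215, -1.15 and -0.613, smallest in αKG replicate 3.

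**Figure D4:**
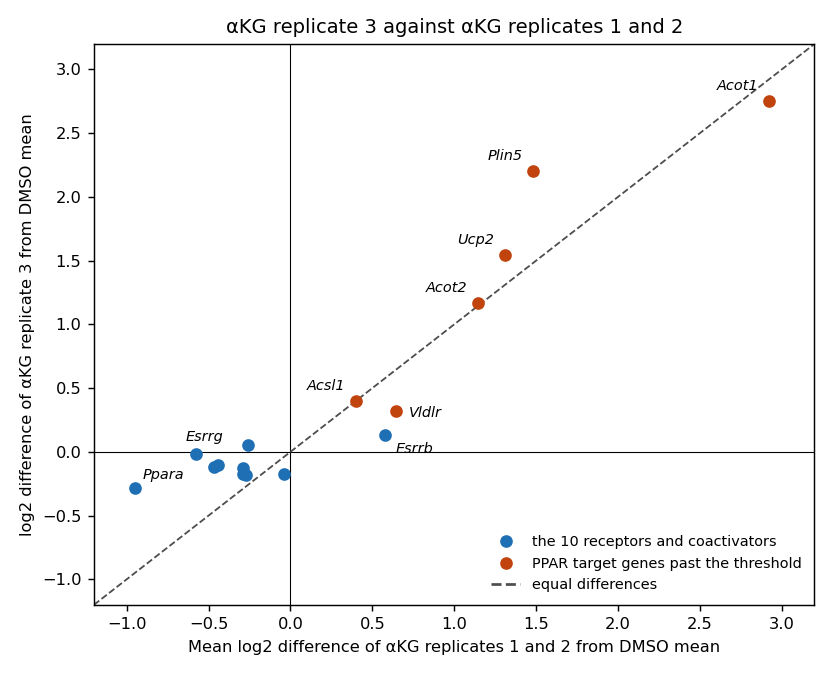
For each gene, the log2 difference of αKG replicate 3 from the DMSO mean (vertical) against the mean log2 difference of αKG replicates 1 and 2 (horizontal), with the line of equal differences dashed. The 10 receptors and coactivators (blue) lie between -0.29 and 0.13 on the vertical axis. Of the PPAR targets past the threshold (orange), *Acot2* and *Acsl1* lie on the line, *Ucp2* and *Plin5* above it and *Acot1* and *Vldlr* below it.

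Of 22 partners and coregulators of these factors, 0 passed the adjusted threshold. At an unadjusted p under 0.05, 10 were lower and 0 higher, against 12.4% and 15.7% of all genes, and the median log2 fold change was -0.17. Among genes with a mean of at least 100, 23.5% were lower at that p and the median was -0.08. The list holds the other RXRs, PGC-1-related *Pprc1* and *Perm1*, p160 coactivators, acetyltransferases, corepressors such as *Ncor1* and *Nrip1*, and kinases and deacetylases that act on PGC-1α. *Ncor1*, a nuclear receptor corepressor and the strongest of the list, had 2210, 2367 and 2306 normalized counts under DMSO and 2185, 2188 and 2142 under αKG (log2 fold change -0.08 ± 0.05, limma adjusted p = 0.335). *Prkaa2*, the catalytic α2 subunit of AMP-activated kinase, had 1860, 1988 and 2012 under DMSO and 1560, 1677 and 2028 under αKG. There αKG replicate 3 was above all DMSO libraries (log2 fold change -0.16 ± 0.09, limma adjusted p = 0.265). Without αKG replicate 3, 13 of the 22 were called, all lower, where 17.9% of all genes were called lower. Of the genes with a mean of at least 100, 34.6% were called lower in that fit. The GC and length correction called 2 of the 22, where 6.17% of all genes were called. With the replicate block in addition it called 6, where 8.49% of all genes were called. The median of the 22 was -0.29 in both fits, beside -0.05 for all genes.

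Of 13 other lipid, thyroid and retinoid nuclear receptors, 2 fell and 0 rose, against 0.952% and 2.83% of all genes, with a median log2 fold change of -0.27. Without αKG replicate 3, 6 were called lower and 1 higher, against 17.9% and 19.3% of all genes. The share called lower was 34.6% among genes with a mean of at least 100. *Thrb*, thyroid hormone receptor β, had 266, 269 and 268 normalized counts under DMSO and 163, 183 and 205 under αKG. All αKG libraries were well below the narrow DMSO range, and the log2 fold change was -0.55 ± 0.11 (limma adjusted p = 0.036). *Nr1d2*, the circadian repressor REV-ERBβ, fell from 514, 547 and 522 to 368, 385 and 453 (log2 fold change -0.40 ± 0.09, limma adjusted p = 0.0489). *Thra*, the main thyroid hormone receptor of the heart, had 882, 800 and 792 under DMSO and 712, 704 and 808 under αKG, with the groups overlapping (log2 fold change -0.15 ± 0.08, limma adjusted p = 0.231). Both calls were lost without DMSO replicate 1, 2 or 3 and without αKG replicate 1 or 2, each leaving a limma adjusted p of 0.139 or more, in fits that called 0 to 152 of all genes. The log2 fold changes in them were -0.55 to -0.46 for *Thrb* and -0.42 to -0.34 for *Nr1d2*. Both calls were also lost without the variance trend, with the replicate block alone and with DMSO replicates 2 and 3 averaged. That of *Nr1d2* was lost in addition with quantile normalization, with a pseudocount of 0.1 and with limma-voom. *Thrb* passed under 10 of 18 alternatives and *Nr1d2* under 7.

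Of 30 known PPAR target genes, 6 rose and 0 fell, against 2.83% and 0.952% of all genes, and the median log2 fold change was 0.15. Without αKG replicate 3, 13 were called higher and 3 lower, against 19.3% and 17.9% of all genes, and with the GC and length correction the median was 0.08. *Acot2*, a mitochondrial acyl-CoA thioesterase, had 127, 119 and 133 normalized counts under DMSO and 275, 286 and 285 under αKG (log2 fold change 1.15 ± 0.10, limma adjusted p = 0.00241). *Ucp2*, a mitochondrial inner membrane carrier, had 82, 98 and 84 under DMSO and 216, 222 and 258 under αKG (1.39 ± 0.13, limma adjusted p = 0.00266). In both, all 3 αKG libraries were more than 2-fold above every DMSO library, and αKG replicate 3 was as high as the others. *Acot1*, the cytosolic paralog of *Acot2*, had 4, 2 and 2 under DMSO and 26, 26 and 23 under αKG (2.87 ± 0.37, limma adjusted p = 0.00778). Reads that fit both paralogs were excluded by the counting, so the division between them is uncertain.

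*Acsl1*, which activates long-chain fatty acids, had 1082, 1146 and 1153 normalized counts under DMSO and 1494, 1482 and 1484 under αKG (log2 fold change 0.40 ± 0.06, limma adjusted p = 0.0118). *Vldlr*, a lipoprotein receptor, had 1405, 1368 and 1492 under DMSO and 2127, 2320 and 1772 under αKG (0.54 ± 0.09, limma adjusted p = 0.026). The sixth, the lipid droplet protein gene *Plin5*, was outside the naming rule and is given because its value was seen (14, 7 and 14 against 32, 34 and 55, limma adjusted p = 0.0367). *Lpl*, the lipase that frees fatty acids from lipoproteins, had 1607, 1658 and 1650 under DMSO and 1921, 2101 and 1521 under αKG, where αKG replicate 3 was the lowest of all libraries (0.16 ± 0.10, limma adjusted p = 0.327). In αKG replicate 3 the difference from DMSO was 94.2% to 118.0% of that in αKG replicates 1 and 2 for *Acot1*, *Acsl1*, *Acot2* and *Ucp2*, 148.6% for *Plin5* and 49.4% for *Vldlr*. These 6 were picked by a test that used αKG replicate 3, which favours genes that were also high there, and the 10 receptors and coactivators were not picked in this way. Leaving out DMSO replicate 2, DMSO replicate 3, αKG replicate 1 or αKG replicate 2 left none of the PPAR targets past the threshold. These fits called only 3, 4, 0 and 0 of all genes. The log2 fold changes in them were 1.11 to 1.19 for *Acot2* and 1.36 to 1.47 for *Ucp2*. Without DMSO replicate 1, *Acsl1*, *Vldlr* and *Plin5* did not pass, in a fit that called 152 of all genes.

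**Figure D5:**
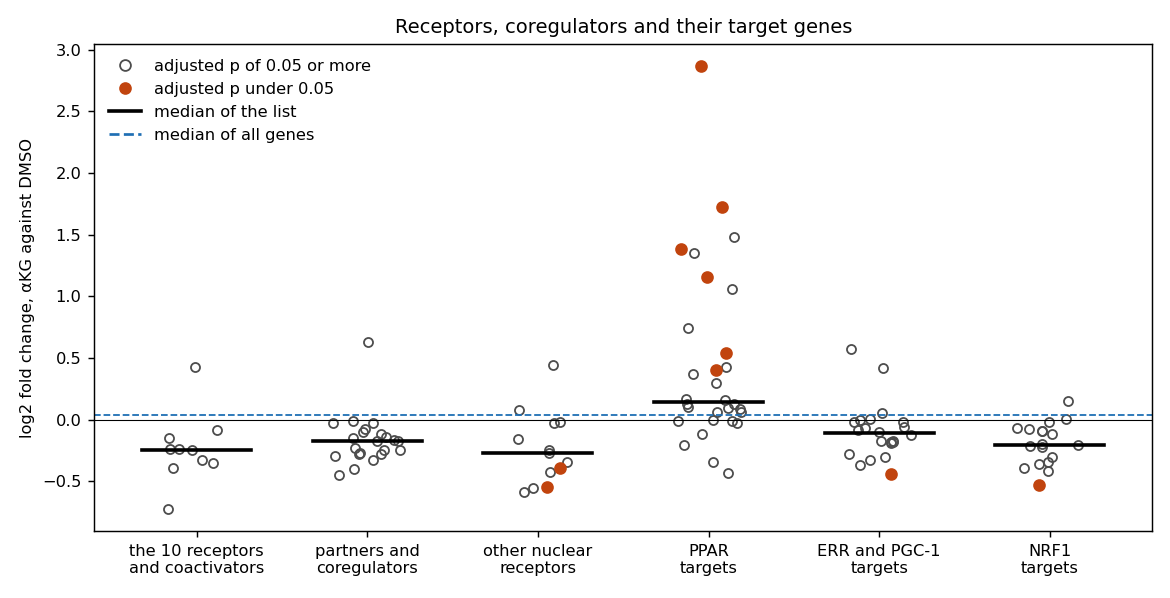
log2 fold changes in αKG against DMSO for the 10 receptors and coactivators and for 5 lists of related genes, with a point per gene, filled where the limma adjusted p was under 0.05, a bar at each median and a dashed line at the median of all genes. Filled points above 0 are found among the PPAR targets and filled points below 0 among the other nuclear receptors, the ERR and PGC-1 targets and the NRF1 targets.

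Of the ERR and PGC-1 target genes 22 were listed, of which 0 rose and 1 fell, against 2.83% and 0.952% of all genes, with a median log2 fold change of -0.11. The gene that fell was *Gpd1l*, a glycerol-3-phosphate dehydrogenase-like enzyme, with 302, 279 and 302 normalized counts under DMSO and 207, 206 and 239 under αKG (log2 fold change -0.44 ± 0.10, limma adjusted p = 0.0459). *Mfn2*, which fuses mitochondria, had 2432, 2359 and 2338 under DMSO and 2045, 1988 and 2305 under αKG (-0.17 ± 0.06, limma adjusted p = 0.125). At an unadjusted p under 0.05, 6 of the 22 were lower and 2 higher, against 12.4% and 15.7% of all genes. Without αKG replicate 3, 11 were called lower and 2 higher, against 17.9% and 19.3%.

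Of 18 NRF1 target genes, 0 rose and 1 fell, against 2.83% and 0.952% of all genes, with a median log2 fold change of -0.20. At an unadjusted p under 0.05, 8 were lower, against 12.4% of all genes, and without αKG replicate 3, 9 were called lower, against 17.9%. The same shares were 23.5% and 34.6% among genes with a mean of at least 100. *Tomm34*, a chaperone of mitochondrial precursor proteins, fell from 244, 220 and 235 to 153, 150 and 180 normalized counts (log2 fold change -0.53 ± 0.11, limma adjusted p = 0.0394). *Alas1*, the first enzyme of haem synthesis, had 706, 693 and 699 under DMSO and 555, 545 and 742 under αKG, with αKG replicate 3 above all DMSO libraries (limma adjusted p = 0.263). *Cox6c*, a subunit of cytochrome c oxidase, had 407, 407 and 428 under DMSO and 400, 418 and 425 under αKG, a difference of 0.00 on the log2 scale with a 95% interval of -0.17 to 0.17. Neither *Gpd1l* nor *Tomm34* passed when any one library other than αKG replicate 3 was left out, although the log2 fold changes stayed at -0.48 to -0.40 for *Gpd1l* and -0.57 to -0.49 for *Tomm34*. The same fits called 0 to 152 of all genes. Both genes were also lost with a pseudocount of 0.1, with limma-voom and without the variance trend. So they were with the replicate block alone and with DMSO replicates 2 and 3 averaged, and *Gpd1l* also with quantile normalization. *Gpd1l* passed under 7 of 18 alternatives and *Tomm34* under 8. Over all 5 lists, which hold 103 different genes, 10 passed, and 57 passed without αKG replicate 3.

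The genes most like *Ppara* over the 6 libraries, among the 8295 with a mean of at least 100, were *Mgat4b*, *Tbc1d4*, *Habp4*, *Cpped1* and *Ythdf2*, with Pearson correlations of log2 values of 0.997 to 0.999. *Mgat4b*, a glycosyltransferase, had 546, 539 and 519 normalized counts under DMSO and 378, 379 and 480 under αKG. The pattern was common: 866 genes reached 0.95 and 56 reached 0.99, and all points share the same 2 groups and the same αKG replicate 3.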

How the data were processed

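RNA of cultured neonatal CMs was sequenced in 3 DMSO and 3 αKG libraries, grouped by their labels. According to the study's methods and the submitters' processing notes, the authors used Trimmomatic 0.39 for trimming, STAR 2.7.10a for alignment to mm10 (GRCm38.p5), featureCounts 2.0.3 for counting over exons, without reads that fit more than 1 gene or place, and DESeq2 1.30.1. The deposited values were treated as a score, because they had been divided by a factor per library and rounded, so count tests were not used. The value of 1 read, 0.9259 to 1.1188, was estimated from how often each whole number occurs among the values of a library. It was recovered within 0.1% for 19 of 20 simulated factors over 20066 genes. Libraries were made with a stranded total RNA kit per the labels, and whether the counting used strand is not given in the sources used here.

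All 6 libraries entered 1 fit on log2(value + 1), with treatment as its only term and no filter (limma 3.58.1 with variance trend, R 4.3.3; Python 3.11.15, scipy 1.17.1 for permutation tests). The pseudocount of 1 understates changes of low genes. Adjusted p-values are Benjamini-Hochberg values over all 20066 genes. The procedure was tested on simulated data with the same group sizes. Of 200 genes with 2-fold changes among 20066, 154 were called, all with the right sign. There were 24 unchanged genes called, none of these with a mean of 3 or more. The simulation gave all genes the same low dispersion and changed only well-expressed genes. It held no library that stood apart like αKG replicate 3, so its counts need not hold for these libraries. Exon lengths came from GENCODE M21, in which 99.0% of genes had the positions given in the table. Nothing in the labels says that the libraries of a group came from separate isolations. The study's methods, in the section on staining, describe each sample of neonatal CMs as a single isolation. Its figure legend counts independent experiments, and neither states this for the sequenced libraries. The p-values measure the spread between these libraries, which may be technical. The concentration follows the labels, and the study's methods give another one.

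The 10 genes and the gene lists were chosen with earlier results of these data known. Named were the 10 genes, from each list up to 4 genes with the smallest p among those past the threshold and the 2 with the highest mean (from marker lists the latter only), and the 5 genes most like the member with the smallest p. A result of this rule is not reported here. *Plin5* and the features inside introns were added after their values were seen. Alternatives were 3 other scalings, a filter, 2 pseudocounts, the variance model, limma-voom on estimated reads, a replicate block, a GC and length correction with and without the block, each library left out, and, added after seeing the data, DMSO replicates 2 and 3 averaged.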

Additional observations from a re-analysis of the deposited data

How the results depend on the processing

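Of the 10 genes, 0 passed with all libraries and as given. The count was 1 with libraries scaled to the same total (*Ppara*), 2 with the GC and length correction (*Ppara* and *Ppargc1a*), 3 with that correction and the replicate block (*Esrrg* in addition) and 8 without adjustment of p, and it ranged from 0 to 9 when each library was left out in turn. With the replicate block alone it was 0, in a fit that called 46 of all genes. Once the group mean of each gene was subtracted, log2 values of same-numbered libraries of both groups correlated at -0.074, 0.136 and 0.002. αKG replicate 3 stood apart and so weighs on the subtracted αKG mean. These correlations therefore cannot decide whether same-numbered libraries share more than a number. The count over all genes, 759 (74.8% of them higher), was 346 with a pseudocount of 0.1, 27 without the variance trend, 362 with limma-voom, 46 with the replicate block, 1239 with the GC and length correction (42.5% higher), 1703 with that correction and the block (40.6% higher), 5648 without adjustment and 10 with DMSO replicates 2 and 3 averaged, and it ranged from 0 to 7466 over left-out libraries: 152, 3 and 4 without DMSO replicates 1, 2 and 3, and 0, 0 and 7466 without αKG replicates 1, 2 and 3. The count over the 5 lists, 10, was 6 with a pseudocount of 0.1, 2 without the trend, 6 with limma-voom, 2 with the block, 20 with the correction and the block and 2 with the averaged libraries, and it ranged from 0 to 57 over left-out libraries. The cause of these changes was not tested.

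The direction of the 10 genes held in 176 of 179 values, the exception being *Pparg*, with a log2 fold change of 0.035 under limma-voom and -0.36 to 0.197 over left-out libraries. *Pparg* could not be tested under the filter on a mean of 10. Of the ratios, 39 of 40 values kept their direction, and that of *Esrrg* to *Esrra* ranged from -0.288 to 0.004 over left-out libraries, the latter without αKG replicate 1. Among other named genes, the log2 fold change of *Lpl* went from 0.16 to -0.003 and that of *Ttn* from 0.45 to -0.208 with the GC and length correction, with or without the block. *Cox6c* was -0.064 there, -0.023 with equal totals and -0.017 to 0.026 over left-out libraries. *Ryr2* went from 0.28 to -0.124 with quantile normalization, and *Mrc1* ranged from -0.331 to 0.084 over left-out libraries. *Plin4* was 0.041 with quantile normalization, 0.005 with recomputed median-ratio factors, 0.002 with limma-voom, 0.029 with the correction, 0.035 with averaged libraries and -0.073 to 0.08 over left-out libraries. At this depth *Pparg* and *Rxrg* lie near the detection limit, as does *Acot1* in DMSO.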

Other observations

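Several annotated features on the same strand lie inside introns of these genes without sharing exon bases with them, and were chosen after their values were seen. Inside *Ppargc1a*, *Gm43605* had 24, 28 and 20 normalized counts under DMSO and 75, 76 and 43 under αKG (log2 fold change 1.36 ± 0.27, limma adjusted p = 0.036). *Gm42614* had 70, 91 and 70 under DMSO and 140, 121 and 88 under αKG (0.57 ± 0.20, limma adjusted p = 0.106), and *Gm42615* had 29, 20 and 29 under DMSO and 42, 41 and 27 under αKG (0.47 ± 0.27, limma adjusted p = 0.275). Inside *Esrrg*, *Gm38315* had 19, 25 and 17 under DMSO and 39, 39 and 27 under αKG (0.75 ± 0.27, limma adjusted p = 0.115). In *Gm42614* and *Gm42615*, αKG replicate 3 lay inside the DMSO range. The microRNA gene *Mir378a*, inside *Ppargc1b*, had 3, 1 and 2 under DMSO and 0, 0 and 1 under αKG, too few for a fold change. The host genes had lower means in αKG.

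Among the marker lists, 6 of 10 endothelial markers fell, *Cdh5*, an endothelial cadherin, from 519, 442 and 518 to 222, 195 and 316 normalized counts (limma adjusted p = 0.0181), while *Flt1* had 485, 510 and 499 under DMSO and 733, 719 and 411 under αKG. *Lipe*, hormone-sensitive lipase, which is also expressed in heart muscle, rose from 78, 67 and 80 to 124, 114 and 133 (limma adjusted p = 0.036), and *Plin4* had 334, 365 and 413 under DMSO and 376, 349 and 383 under αKG. *Cspg4*, a pericyte marker, rose from 801, 846 and 777 to 1576, 1282 and 1021 (limma adjusted p = 0.0362). *Abcc9*, the highest of the same list, had 2114, 2020 and 2047 under DMSO and 1590, 1495 and 2060 under αKG (limma adjusted p = 0.126). At an unadjusted p under 0.05, 2 of these 10 markers were higher and 2 lower, against 15.7% and 12.4% of all genes. *Col1a1* had 1018, 1006 and 951 under DMSO and 2402, 2288 and 1042 under αKG (limma adjusted p = 0.0839).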
